A study of Mus musculus with 6 samples.

Results

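Plasmacytoid dendritic cells (pDCs) were selected from single-cell RNA profiles of sorted live CD45+ lung cells, and 303 of 24474 kept cells met the selection rule. The mice belonged to a humanized PD-1 model, were 6 to 8 weeks old, and received an isotype control or an agonist of PD-1, an inhibitory receptor best known on T cells. The study asks whether engaging human PD-1 relieves neutrophilic asthma, and the labels do not state the dose, route, timing or airway challenge. Each treatment has 3 samples labelled as mice, which were hash-tagged and mixed before capture.

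Any pair of tables from the same treatment had 2373 to 2736 barcodes in common, 35.9% to 42.5% of the smaller table. Total counts of those shared barcodes correlated between tables with Spearman's rho of 0.9994 to 0.9997, whereas tables of different treatments shared 3 to 13 barcodes. Each barcode was therefore used once per treatment, and each treatment was treated as 1 pool with no replicate check. No test was made between treatments, and every interval below is a 95% interval for counting error only. The tables held 6393 to 6749 cell records each with total counts of 22202875 to 30608477, and 11781 isotype and 12693 agonist cells with at least 500 detected genes were kept.

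pDCs are rare innate immune cells that sense viral and self nucleic acids through the endosomal receptors TLR7 and TLR9 and can answer with large amounts of type I interferon. Their identity depends on the transcription factor TCF4 (E2-2), a basic helix-loop-helix protein that binds E-box sequences, together with IRF8, SPIB, BCL11A and RUNX2. In the lung they are studied in viral infection and allergic airway disease, where roles in tolerance have also been described.

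A cell was called a pDC when it had at least 2 counts of Siglech, a sialic acid-binding receptor of mouse pDCs, and at least 1 count of Ccr9, Cox6a2, Klk1 or Smim5. It also had no count of Cd3e, Ncr1, Cxcr2 or Fscn1, and fewer than 2 counts each of Cd79a and C1qa, which mark T cells, NK cells, neutrophils, migratory dendritic cells, B cells and macrophages. These genes chose the cells, so their values are given as a description. The promoters of 4 genes that set the pDCs apart are shown because the E-box, the word CANNTG, is the site bound by TCF4. Each is the 250 bases before the RefSeq start on GRCm38.p6, written 5′ to 3′ on the gene's strand, with every CANNTG word in capitals. Siglech lies at chr7:55767934-55768183 on the plus strand, Ccr9 at chr9:123766961-123767210 on the plus strand, Klk1 (a kallikrein protease) at chr7:44225110-44225359 on the plus strand, and Cd300c (an immunoglobulin-family receptor) at chr11:114960508-114960757 on the minus strand.
Siglech: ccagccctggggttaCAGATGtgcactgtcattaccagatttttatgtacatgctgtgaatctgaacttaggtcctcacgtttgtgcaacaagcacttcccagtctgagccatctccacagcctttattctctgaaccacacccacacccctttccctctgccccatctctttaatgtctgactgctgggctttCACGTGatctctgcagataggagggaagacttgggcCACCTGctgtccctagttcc
Ccr9: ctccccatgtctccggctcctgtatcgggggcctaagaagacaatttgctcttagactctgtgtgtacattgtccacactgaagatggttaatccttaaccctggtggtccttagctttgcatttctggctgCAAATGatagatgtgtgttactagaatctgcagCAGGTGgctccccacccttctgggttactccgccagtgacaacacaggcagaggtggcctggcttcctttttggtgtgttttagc
Klk1: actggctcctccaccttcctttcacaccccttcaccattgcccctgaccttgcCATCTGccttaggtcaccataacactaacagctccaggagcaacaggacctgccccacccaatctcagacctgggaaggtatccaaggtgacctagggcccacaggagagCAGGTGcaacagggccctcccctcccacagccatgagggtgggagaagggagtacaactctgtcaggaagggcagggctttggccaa
Cd300c: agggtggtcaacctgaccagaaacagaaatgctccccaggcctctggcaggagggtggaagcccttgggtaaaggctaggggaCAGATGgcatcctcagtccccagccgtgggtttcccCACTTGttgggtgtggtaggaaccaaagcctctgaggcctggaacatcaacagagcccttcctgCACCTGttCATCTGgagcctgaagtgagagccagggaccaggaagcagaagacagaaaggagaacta
The Siglech window held 3 CANNTG words, that of Ccr9 held 2, that of Klk1 held 2 and that of Cd300c held 4, and each window held 1 CAGGTG word read on either strand (CAGGTG or CACCTG). Among the 25 genes that led the pDCs (named below), 17 had a RefSeq promoter, and 13 of these (76.5%) held a CANNTG word, against 66.0% of all 27025 promoters of the same length. CAGGTG, which is 1 form of CANNTG, was in 6 of the 17 (35.3%) and in 17.1% of all promoters. The 4 windows shown were not picked by a rule, and all 4 are among these 6. These are matches of letters, not measured binding sites.

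The label held against markers that the rule did not use. Bst2, a surface antigen of mouse pDCs that interferon also induces, was detected in 134 of 135 isotype and 165 of 168 agonist pDCs, with medians of 14 and 13 counts per cell. Tcf4 was detected in 134 of 135 and 168 of 168 cells, with medians of 15 and 13 counts. In CPM (a gene's count relative to the TMM-scaled total of the summed counts), Bst2 was at 2955 and 2830.45 in isotype and agonist pDCs against 271.8 and 233 in the other kept cells.

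Markers of other cell types differed in level, from far below the other kept cells to above them. T cell markers summed to 99.3 CPM in isotype and 63.7 CPM in agonist pDCs against 1189 and 1003 CPM in the other cells, with 9 of 10 having a count and Cd3e at 0 by the rule. NK cell markers (10 of 11 with a count) summed to 304 and 136 CPM against 2745 and 2749 CPM, and neutrophil markers (9 of 12; Cxcr2, Ly6g and Ltf at 0) to 480.3 and 451 CPM against 9428 and 13475 CPM. Macrophage markers (11 of 13; Folr2 and Marco at 0) summed to 394 and 269.9 CPM against 3197 and 2963 CPM. Migratory dendritic cell markers (7 of 10) summed to 136 and 155 CPM against 641 and 685 CPM. Markers of type 1 conventional dendritic cells (8 of 10) summed to 274 and 304 CPM against 460 and 422 CPM. Those of type 2 cells (10 of 10) were near the other cells, at 639 and 651 CPM against 652 and 663 CPM, and were led by Clec10a. B cell markers, of which all 12 had a count, summed to 1149 and 1351 CPM against 1257 and 1604 CPM and were led by Ighm. Monocyte markers, of which all 12 had a count, summed to 4444 and 4025 CPM against 5140.2 and 4825 CPM and were led by Ly6c2. Both Ighm and Ly6c2 are also known from mouse pDCs. Plasma cell markers (7 of 8; Tnfrsf17 at 0), led by Mzb1, were higher in pDCs, at 261 and 292 CPM against 167 and 187 CPM. Epithelial and endothelial markers (4 of 11) were also higher, at 248 and 284 CPM against 77.6 and 81.0 CPM, led by Cdh5, with Sftpc, Sftpa1, Krt8, Krt18, Cldn5, Col1a1 and Col3a1 at 0.

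Of the isotype pDCs, 11 carried 1 of the 4 second markers, 28 carried 2, 49 carried 3 and 47 carried all 4, and the agonist counts were 12, 37, 60 and 59. Ccr9, the receptor for the gut chemokine CCL25, was detected in 130 of 135 and 158 of 168 cells, and Cox6a2, a subunit of cytochrome c oxidase, in 105 and 127. Klk1 was detected in 81 and 102 cells and Smim5, a small membrane protein, in 86 and 115. T cells were taken as cells with a count of Cd3e and fewer than 2 counts of Siglech, so their Siglech share was limited by that choice. Siglech was detected in 0.164% and 0.496% of them. Cox6a2, which is not expected in T cells and did not choose them, was detected in 0.45% and 0.198%, at median totals of 4164 and 3572 counts. pDCs had median totals of 4906 and 4633.5 counts and 2200 and 2152.5 detected genes. At the border of the rule, 5 isotype and 5 agonist members had only 2 to below 3 counts of Siglech, and their Tcf4 levels were 3065 and 2661 CPM. Just outside, the 9 and 13 cells with 1 to below 2 counts of Siglech had 1368 and 1215 CPM of Tcf4, and the 12 and 13 cells with Siglech but no second marker had 2199.5 and 1778 CPM (CPM of the cells' summed counts).

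**Figure D1:**
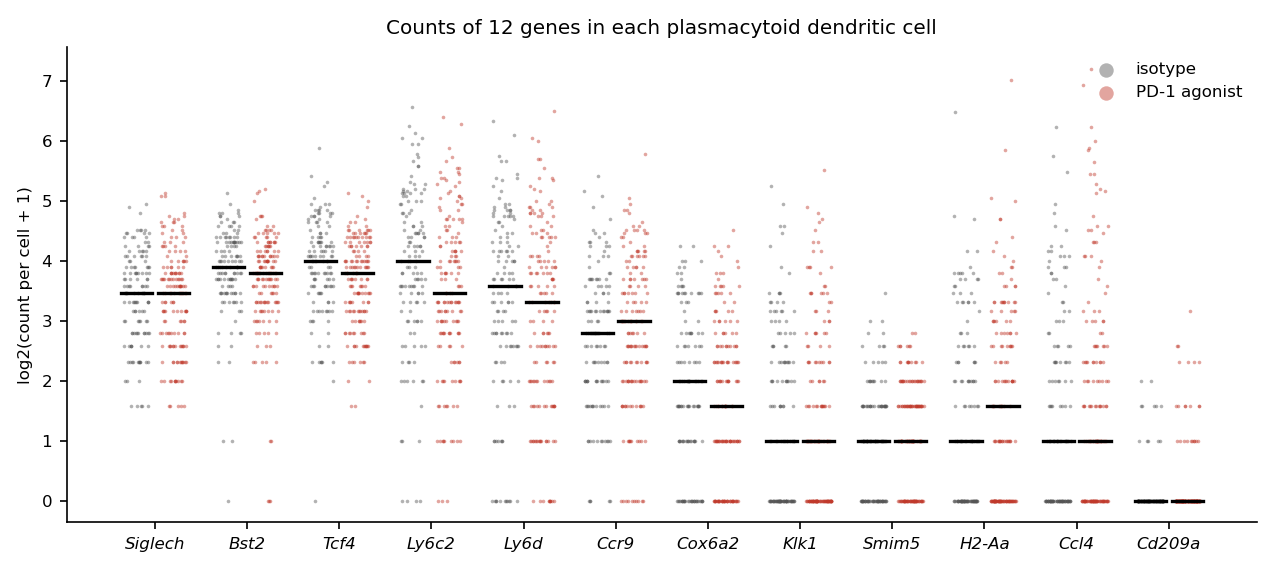
Counts of 12 genes in each of the 135 isotype and 168 agonist pDCs (y axis, log2 of the count per cell plus 1; 1 point per cell, black bars at the medians). Siglech has a median of 10 counts in both treatments, and most cells have no count of Cd209a (123 of 135 and 144 of 168).

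pDCs made up 1.15% of kept cells in the isotype pool (135 of 11781; exact binomial interval 0.962 to 1.35%) and 1.32% in the agonist pool (168 of 12693; 1.13 to 1.54%). The log2 ratio of the shares was 0.21 (exact conditional interval -0.13 to 0.55), so a difference was not detectable at this depth. Single tables gave 1.13, 1.02 and 1.10% for isotype and 1.33, 1.20 and 1.39% for agonist, and these share cells. The rule's exclusion genes took out 20 isotype and 54 agonist cells that met its positive criteria, of which Scrublet, a doublet caller, marked 12 and 32. With those cells kept, the shares were 1.32% and 1.75% and the log2 ratio 0.41 (0.11 to 0.72). Cells with at least 1500 counts were also thinned to 1500 counts. This left out 2310 isotype and 3269 agonist kept cells, of which 3 and 5 were pDCs. The shares of thinned cells that met the rule were 1.15% (109 of 9471) and 1.53% (144 of 9424), with a log2 ratio of 0.41 (0.04 to 0.78). Median totals over all kept cells were 2892 counts in isotype and 2464 in agonist, and the part of this gap in the shares was not tested further. Shares of sorted CD45+ cells do not give numbers of cells per lung.

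**Figure D2:**
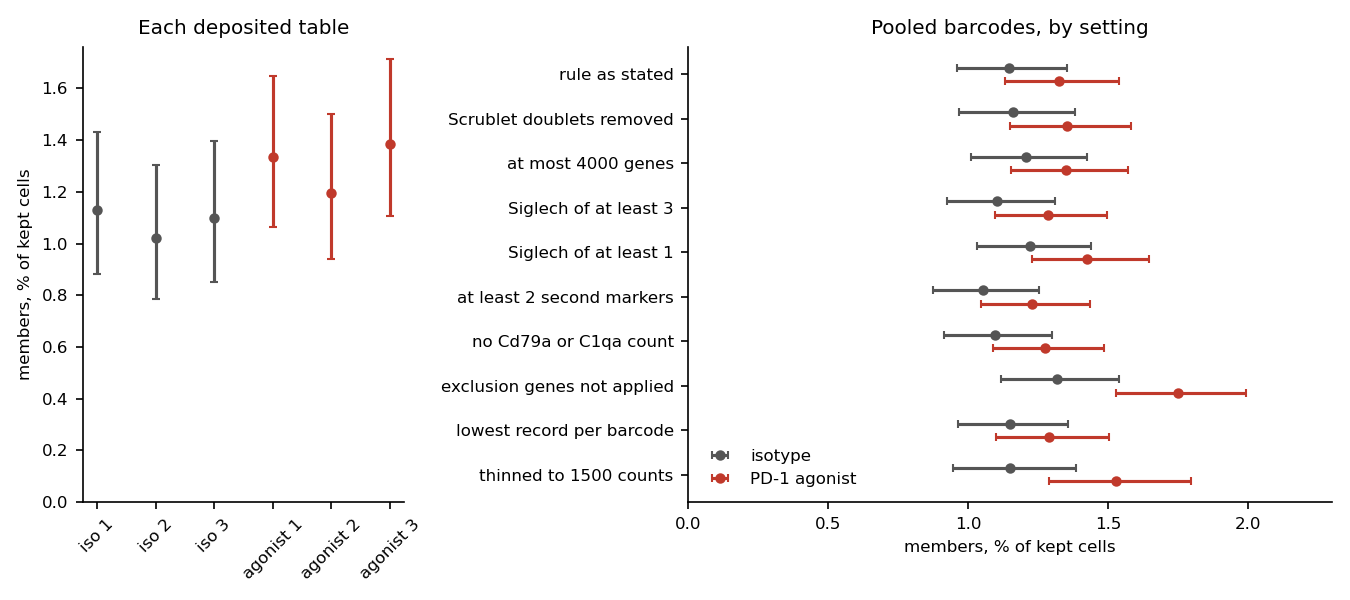
pDCs as a percentage of kept cells in each deposited table (left; y axis, percent) and in the pooled barcodes of each treatment under the stated rule and under changed settings (right; x axis, percent), with 95% exact binomial intervals for counting error. Under the stated rule the intervals, 0.962 to 1.35% and 1.13 to 1.54%, overlap, and the agonist share is highest, at 1.75%, with the exclusion genes not applied.

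The genes that set pDCs most apart from the other kept cells, by the lower of their log2 ratios in isotype and agonist, were Sh3bgr, Klk1, Siglech, Klk1b27, Dntt, Cox6a2, Gm21762, Cdh5, Smim5, D13Ertd608e, Ccr9, Cd300c, Paqr5, Pir, Havcr1, Atp2a1, Lefty1, Pdzd4, Ptprf, Chdh, Eldr, Gm34680, Lrp8, Arhgap32 and Tmem221. The cells were chosen by 5 of these genes, so the ranking is a description. Siglech was at 2189.9 and 2337 CPM in pDCs of the isotype and agonist pools against 5.63 and 11.9 CPM in the other cells. D13Ertd608e, which the rule did not use, was at 1037 and 1092 CPM against 6.41 and 10.5 CPM, but 95.4% of its 31-base words occur in another gene. Dntt, terminal deoxynucleotidyl transferase of lymphoid progenitors, was at 84.7 and 104 CPM against 0.554 and 0.576 CPM, and was detected in 27.4% and 25.6% of pDCs. Cdh5, the cadherin of endothelial junctions, was at 127 and 139 CPM against 1.03 and 1.11 CPM. Some members of the Klk family share sequence, and 47.1% of the 31-base words of Klk1 and 41.7% of those of Klk1b27 occur in another gene, so reads of these genes could have been assigned to either.

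pDCs were next set beside 55 type 1 conventional dendritic cells (cDC1; Flt3 with at least 2 of Xcr1, Clec9a, Cadm1, Gcsam and Itgae), 117 type 2 cells (cDC2; Flt3 with at least 2 of Cd209a, Clec10a and Mgl2) and 1737 B cells (Cd79a of at least 2 with Ms4a1). Genes counted as apart when they were at least 2-fold higher or lower in both treatments. Against cDC1, 15.9% of 6011 measured genes were higher and 6.87% lower. Against cDC2 these were 12% and 7.72% of 6682 genes, and against B cells 10.3% and 9.35% of 9432 genes. Since all classes were chosen by their own genes, these are descriptions of the classes and not tests.

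Lineage transcription factors separated pDCs from both kinds of conventional dendritic cell. Of 32 measured, 17 were higher and 4 lower (Batf3, Bcl6, Id2 and Spi1) than in cDC1 (median log2 ratio 1.35 against 0.21 for all genes), and 15 were higher and 3 lower (Batf3, Runx1 and Spi1) than in cDC2 (0.78 against 0.09). Of 34 measured against B cells, 12 were higher and 4 lower (Ets1, Ikzf3, Irf4 and Tcf3), with a median of 0.34 against -0.04. Of all measured genes, 15.9% were higher and 6.87% lower than in cDC1. Against cDC2 these were 12% and 7.72%, and against B cells 10.3% and 9.35%. Tcf4 was at 3215 and 2754 CPM in isotype and agonist pDCs, at 47.0 and 62.8 CPM in cDC1, at 488 and 519 CPM in cDC2, and at 371 and 331 CPM in B cells. Runx2, which acts in pDC maturation and exit from the bone marrow, was at 1171 and 824 CPM in pDCs and at no more than 65.4 CPM in the other 3 classes. Irf8, shared by pDCs and cDC1, was at 2604 and 2511 CPM in pDCs and at 1582 and 1179 CPM in cDC1, and at 146 and 114 CPM in cDC2. Bcl11a was at 785 and 674 CPM in pDCs against 316 and 229 CPM in B cells, and Spib, an ETS factor of pDCs and B cells, at 416 and 337 CPM against 263 and 236 CPM. The factors of conventional dendritic cells were low. Id2, the inhibitor of E proteins such as TCF4, was at 90.5 and 80.0 CPM in pDCs against 1088 and 1241 CPM in cDC1, and Batf3, required for cDC1, at 2.92 CPM (2 counts) and 7.498 CPM (6 counts) against 294 and 237 CPM.

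The list of pDC identity genes was drawn up with these cells' results known. It had 38 of 43 measured members higher and 0 lower than in cDC1, beside 15.9% and 6.87% of all genes. Against cDC2, 35 of 43 were higher and 2 lower (Cd209d and Ms4a6c), beside 12% and 7.72%. Against B cells, 37 of 45 were higher and 1 lower (Fam129c), beside 10.3% and 9.35%. Ly6d, a lymphoid surface protein, was at 2872 and 2667 CPM in pDCs and at 1329 and 1086 CPM in B cells, and at no more than 72.0 CPM in cDC1 and cDC2. Cd8a was at 140.2 and 186 CPM and Cd4 at 162 and 211 CPM, above their levels in cDC1, cDC2 and B cells, although Cd3e-positive cells had been left out by the rule.

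Among genes of endosomal nucleic acid sensing, 9 of 31 were higher and 2 lower (Cd36 and Irf5) than in cDC1, beside 15.9% and 6.87% of all genes. Against cDC2, 10 of 32 were higher and 3 lower (Irak4, Irf5 and Myd88), beside 12% and 7.72%. Against B cells, 10 of 34 were higher and 2 lower (Cd36 and Irak2), beside 10.3% and 9.35%. Tlr7, the receptor for single-stranded RNA, was at 137 and 156 CPM in pDCs, at 1.72 and 8.78 CPM in cDC2 and at 41.5 and 35.8 CPM in B cells. In cDC1 it had 0 counts in isotype cells (a floor of 3 counts is 8.82 CPM) and 3.49 CPM in agonist cells. It was detected in 45.9% and 48.8% of pDCs and in 5.81% and 6.40% of T cells, and in 21.2% and 23.9% of pDCs once thinned. Tlr9, the receptor for unmethylated CpG DNA, had 0 counts in 135 isotype pDCs, which at a floor of 3 counts allows a share of cells with a count of up to 2.22% (the exact binomial interval reaches 2.70%), and was detected in 4 of 168 agonist pDCs. Its partner Unc93b1, which carries both receptors to endosomes, was at 663 and 585 CPM in pDCs against 255.8 and 317 CPM in cDC1. Slc15a4, a lysosomal transporter needed for these responses, was at 134 and 152 CPM against 26.5 and 31.4 CPM, and the lysosomal proteases Ctsb and Ctsl were at 1594 and 1517 CPM and at 1098 and 989.7 CPM against 192 CPM or less in cDC1. Pld4, an exonuclease that limits these receptors, was at 958 and 933 CPM in pDCs and at no more than 275 CPM in the other 3 classes.

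Receptors that restrain pDC interferon and their signalling adaptors formed a further group. Of 27 measured, 14 were higher and 2 lower than in cDC1, beside 15.9% and 6.87% of all genes. Against cDC2, 10 were higher and 4 lower, beside 12% and 7.72%. Against B cells, 14 were higher and 3 lower, beside 10.3% and 9.35%. Lair1, an inhibitory collagen receptor, was at 994 and 979.7 CPM in pDCs and at 91.1 CPM or less in the other 3 classes. Tyrobp (DAP12), the adaptor through which Siglec-H signals, was at 2931.5 and 2853 CPM against 1328 and 1239 CPM in cDC2. Ptprs, a receptor phosphatase, was at 385 and 432 CPM against 59.3 CPM or less in the other 3 classes, and Pacsin1, which is known to act in pDC interferon responses, at 235 and 226 CPM against 14.7 CPM or less.

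Antigen presentation by MHC class II lay at the other end. No MHC class II presentation gene was higher in pDCs, and 12 of 15 were lower than in cDC1, 12 of 15 lower than in cDC2 and 10 of 15 lower than in B cells, with median log2 ratios of -2.59, -2.24 and -1.65. Of all genes, 6.87%, 7.72% and 9.35% were lower. H2-Aa, a class II chain, was at 820.5 and 1067 CPM in pDCs, at 6372 and 6325 CPM in cDC1, at 6055 and 5767 CPM in cDC2, and at 2947 and 2908 CPM in B cells. Cd74, the invariant chain, was at 2469 and 3019 CPM in pDCs against 13461 and 12706 CPM in cDC1. MHC class I presentation genes were not low as a group. Of 21 measured, 5 were higher and 2 lower than in cDC1, beside 15.9% and 6.87% of all genes. Against cDC2, 4 were higher and 0 lower, beside 12% and 7.72%. Against B cells, 4 were higher and 0 lower, beside 10.3% and 9.35%. Among checkpoint ligands and costimulators, 3 of 11 were higher (Ly9, Slamf6 and Vsir) and 5 lower (Btla, Cd274, Cd86, Havcr2 and Slamf7) than in cDC1, and 1 of 16 was higher (Slamf6) and 10 lower than in cDC2. These counts stand beside the same shares of all genes, 15.9% and 6.87% for cDC1 and 12% and 7.72% for cDC2. Cd86 was at 14.6 and 19.99 CPM in pDCs against 135 and 143 CPM in cDC1. The PD-1 ligands were low in pDCs, with Cd274 (PD-L1) at 21.9 and 19.99 CPM (15 and 16 counts) against 139 and 93.0 CPM in cDC2, and Pdcd1lg2 (PD-L2) at 1 and 3 counts.

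Cell cycle genes were also low. Against cDC1, 0 of 17 were higher and 15 lower, beside 15.9% and 6.87% of all genes. Against cDC2, 0 of 16 were higher and 10 lower, beside 12% and 7.72%. Mki67, a marker of dividing cells, had 0 counts in isotype pDCs (a floor of 3 counts is 4.38 CPM) and 6.25 CPM in agonist pDCs, and all of the latter came from 1 cell, against 67.1 and 54.4 CPM in cDC2. The secretory pathway set pDCs apart from B cells, with 23 of 45 genes higher and 0 lower, beside 10.3% and 9.35% of all measured genes. Against cDC1, 5 of 44 were higher and 2 lower, beside 15.9% and 6.87% of all genes, and against cDC2, 4 of 45 were higher and 1 lower, beside 12% and 7.72%. Xbp1, a regulator of the secretory apparatus, was at 528 and 677 CPM in pDCs, at 141 and 126 CPM in cDC1 and at 82.1 and 102 CPM in B cells.

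**Figure D3:**
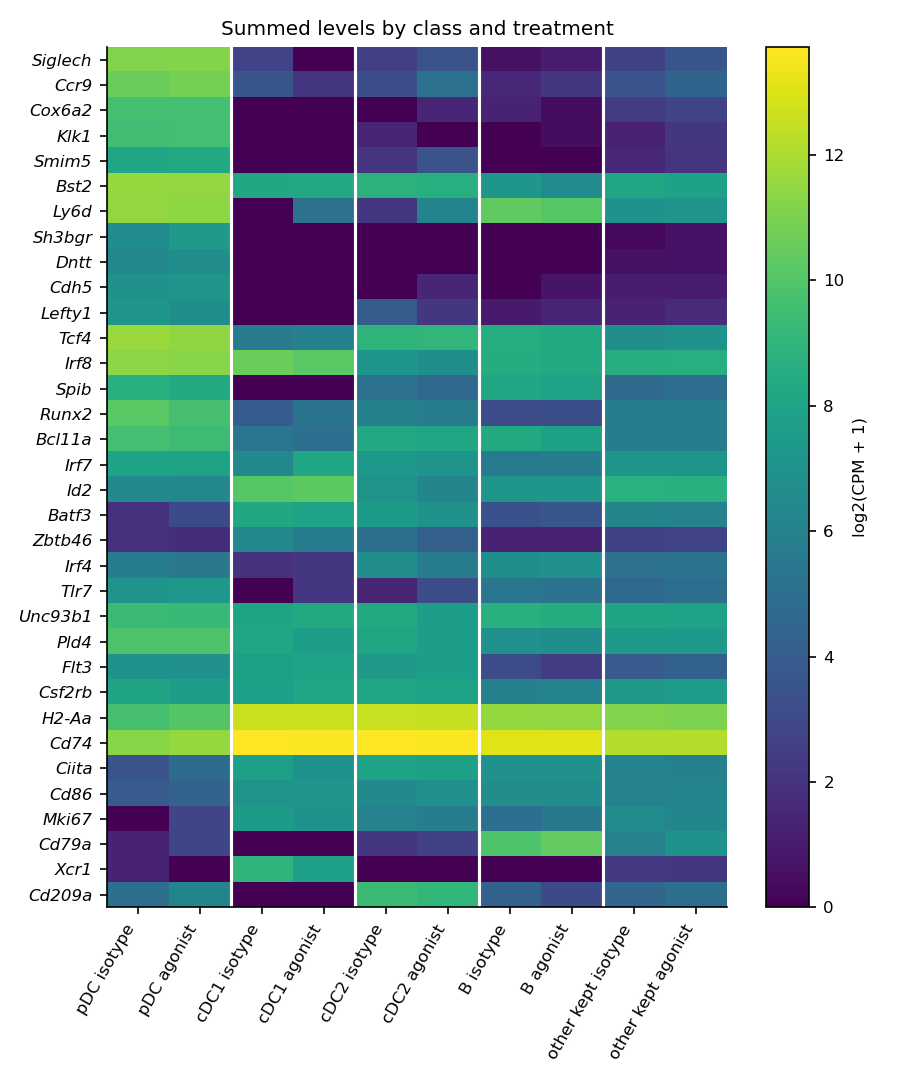
Levels of 34 genes in the summed counts of pDCs, cDC1, cDC2, B cells and all other kept cells of each treatment (colour, log2 of CPM plus 1). Tcf4 and Runx2 are highest in pDCs and H2-Aa is lowest there.

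pDCs also differed among themselves. After thinning to 1500 counts, which left 295 cells, the variance of counts over cells divided by their mean was 13.6 for Ccl4, an inflammatory chemokine, 4.09 for H2-Aa, 3.88 for Ly6d, 3.64 for Ly6c2 and 3.51 for Klk1. Ccl4 had a median of 1 count per cell in each treatment but reached 74 counts in an isotype and 147 in an agonist cell. The 14 isotype cells with the most Ccl4 held 55.9% of its counts, and the top 17 agonist cells held 66.6%. H2-Aa likewise had medians of 1 and 2 counts and maxima of 89 and 129, with 51.4% and 54.2% of its counts in as many top cells. Scrublet marked the isotype cell with 74 counts of Ccl4 and the agonist cell with 129 counts of H2-Aa. It did not mark the agonist cell with 147 counts of Ccl4 or the isotype cell with 89 counts of H2-Aa.

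Ly6d was missing from 11 isotype and 10 agonist pDCs, and this split was chosen after its values were seen. Levels in these few cells are CPM of their summed counts, and the cells share their pool. Tcf4 was at 3212 and 3357 CPM in cells without Ly6d and at 3209 and 2728 CPM in cells with it. H2-Aa was at 42.3 and 49.7 CPM without Ly6d and at 877 and 1123 CPM with it, and Cox6a2 was at 254 and 224 CPM against 851 and 825 CPM. Cd209a, a C-type lectin of cDC2 and of transitional dendritic cells, was at 211 and 224 CPM without Ly6d and at 17.2 and 64.6 CPM with it. The levels without Ly6d rest on 10 counts in 4 isotype cells and 9 counts in 2 agonist cells. Crip1 was at 3275 and 1889.8 CPM against 535 and 837 CPM, and the intermediate filament gene Vim at 1585 and 547 CPM against 259.8 and 299 CPM. Other genes of transitional dendritic cells were mixed. Klf4, S100a4 and Cx3cr1 were higher without Ly6d in isotype cells, and so were S100a6 and Axl, which were not higher in agonist cells. S100a4 there had 8 counts in 2 cells, and Cx3cr1 and Axl 3 counts each in 2 cells. In agonist cells, Klf4, S100a4 and Cx3cr1 were at 149, 274 and 24.9 CPM without Ly6d against 105, 189 and 18.5 CPM with it. The levels without Ly6d rest on 6 counts in 4 cells, 11 counts in 1 cell and 1 count in 1 cell. Their intervals include the levels with Ly6d. Lyz2 was lower, at 106 and 49.7 CPM against 147 and 378 CPM. Ltb and Cd81 had 0 counts without Ly6d and were at 34.3 CPM or less with it. Scrublet marked 1 and 0 of the cells without Ly6d, and 8 and 12 of those with it. Thinned cells lacked Ly6d in 21 of 132 isotype and 34 of 163 agonist cases, against the 11 and 10 at full depth.

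Between treatments, 2 of 48 measured pDC identity genes were at least 1.5-fold higher and 0 lower, beside 6.19% and 5.05% of all genes. Among single genes, Ccl4 was higher and Runx2 and Fos lower with the agonist. Of 4831 genes with at least 50 counts over both pools, 299 (6.19%) were at least 1.5-fold higher and 244 (5.05%) at least 1.5-fold lower in agonist pDCs, with a median log2 ratio of -0.02. With 1 pool per treatment these are differences between the pools. The rule's own genes differed little: Siglech was 2189.9 and 2337 CPM, with a log2 ratio of 0.09 (-0.01 to 0.19), and Ccr9 was 1578 and 1833 CPM, with a log2 ratio of 0.22 (0.10 to 0.33).

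A large share of the genes that were higher carried sequence found in other genes. Among 536 measured genes with at least 50% of their 31-base words in another gene, 25.4% were higher and 9.89% lower. Among 3423 genes with under 10% shared words, 3.18% were higher and 4.09% lower. Of 291 measured pseudogenes, 109 (37.5%) were higher in agonist pDCs, and 100 of 271 were in cDC2, 107 of 289 in B cells, and 110 of 291 in T cells. The direction was thus seen in each of these classes. The genes named next were therefore taken from protein-coding genes with under 10% shared words, and with no single cell holding 25% or more of the counts of a treatment that had at least 20. They come from the 10 in each direction whose counting interval lay farthest from no change.

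Ccl4 was at 1020.5 CPM (946 to 1099) in isotype and at 1675 CPM (1586 to 1767) in agonist pDCs, a log2 ratio of 0.71 (0.58 to 0.85). Its deposited tables gave 920, 1209.9 and 1413 CPM for isotype and 1878, 1915 and 1619 CPM for agonist, which do not overlap but share cells. It was detected in 80 of 135 and 109 of 168 cells, and in 20.5% and 17.4% of T cells at median totals of 4164 and 3572 counts. The log2 ratio was 1.01 without the cells Scrublet marked and 0.44 when the exclusion genes were not applied. In the other classes it was -1.0005 (-1.28 to -0.73) in cDC2, 1.46 (1.15 to 1.78) in B cells, -0.09 (-0.16 to -0.02) in T cells and -0.02 (-0.04 to -0.00) in all other kept cells. Ccl3 had 47 and 69 counts and a log2 ratio of 0.33 (-0.23 to 0.90), which was 0.96 without the top cell of each treatment, and Ccl5 had 77 and 75 counts and a ratio of -0.26 (-0.74 to 0.22). The Ccl5 ratio moved between -0.96 without the cells Scrublet marked and 1.45 in cells with no Cd79a or C1qa count, and was 0.67 without the top cell of each treatment, so its sign changed with the setting.

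Runx2 was at 1171 CPM (1091 to 1255) in isotype and 824 CPM (762 to 889) in agonist pDCs, a log2 ratio of -0.51 (-0.66 to -0.36), which is short of 1.5-fold. Its tables gave 1199.7, 1021 and 1143 CPM for isotype and 791, 838 and 801 CPM for agonist, so the isotype tables were all higher. The ratio was -0.53 without the cells Scrublet marked. In all other kept cells, where Runx2 was at 52.5 and 53.3 CPM, the ratio was 0.02 (-0.06 to 0.10). Fos, an immediate early factor induced by signalling and by tissue dissociation, was at 368 and 239.9 CPM, a log2 ratio of -0.62 (-0.90 to -0.34). Its tables gave 382, 383 and 374 CPM for isotype and 239, 266 and 240.8 CPM for agonist. In all other kept cells the Fos ratio was -0.12 (-0.14 to -0.10).

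Further genes were higher from lower levels. Irs2, an adaptor of insulin signalling, was at 55.5 and 114 CPM (log2 ratio 1.04, 0.47 to 1.62) and Nfe2l2 (NRF2), a regulator of the oxidative stress response, at 54.0 and 105 CPM (0.96, 0.38 to 1.56). Stim2, a calcium sensor of the endoplasmic reticulum, was at 23.4 and 58.7 CPM, a log2 ratio of 1.33. Gcnt2, a glycosyltransferase, had a ratio of 1.04, Plxnc1, a semaphorin receptor, 1.08, Gatad2a, a chromatin remodelling subunit, 1.05, and Fam133b 1.30. Cd209a was at 30.7 and 72.5 CPM (1.24, 0.50 to 2.04), but its agonist tables were uneven, at 32.5, 125 and 49.3 CPM, and its ratio was 0.57 without the second of them. Gatad2a was at 0.55 with the record of the lowest total for each shared barcode. In all other kept cells the ratios of Irs2, Nfe2l2, Stim2, Gcnt2, Plxnc1, Gatad2a and Fam133b lay between -0.05 and 0.20, and that of Cd209a was 0.52.

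Among genes that were lower, Apod, a lipid-binding lipocalin, was at 118 and 48.7 CPM (log2 ratio -1.28, -1.87 to -0.71) and was detected in 18 and 17 cells. Its tables overlapped, at 35.7, 158 and 107 CPM for isotype and 51.0, 65.1 and 37.7 CPM for agonist, and the ratio was -0.56 when at least 3 counts of Siglech were required. Its ratio in cDC2 was -2.17 (-3.32 to -1.17). Kdr, the VEGF receptor 2, was at 137 and 78.7 CPM (-0.80, -1.29 to -0.33; -0.56 with at least 2 second markers). Pon3, a lactonase, was at 52.6 and 19.99 CPM (-1.39), Prpf18, a splicing factor, at 67.2 and 29.99 CPM (-1.16) and Sos1, an activator of RAS, at 51.1 and 22.5 CPM (-1.18, and -0.50 without the first agonist table). Tmem245, Nabp2 and AI413582 had ratios of -0.99, -1.13 and -1.10. With the exclusion genes not applied, Tmem245 was at -0.15 and Nabp2 at -0.58, both short of 1.5-fold.

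**Figure D4:**
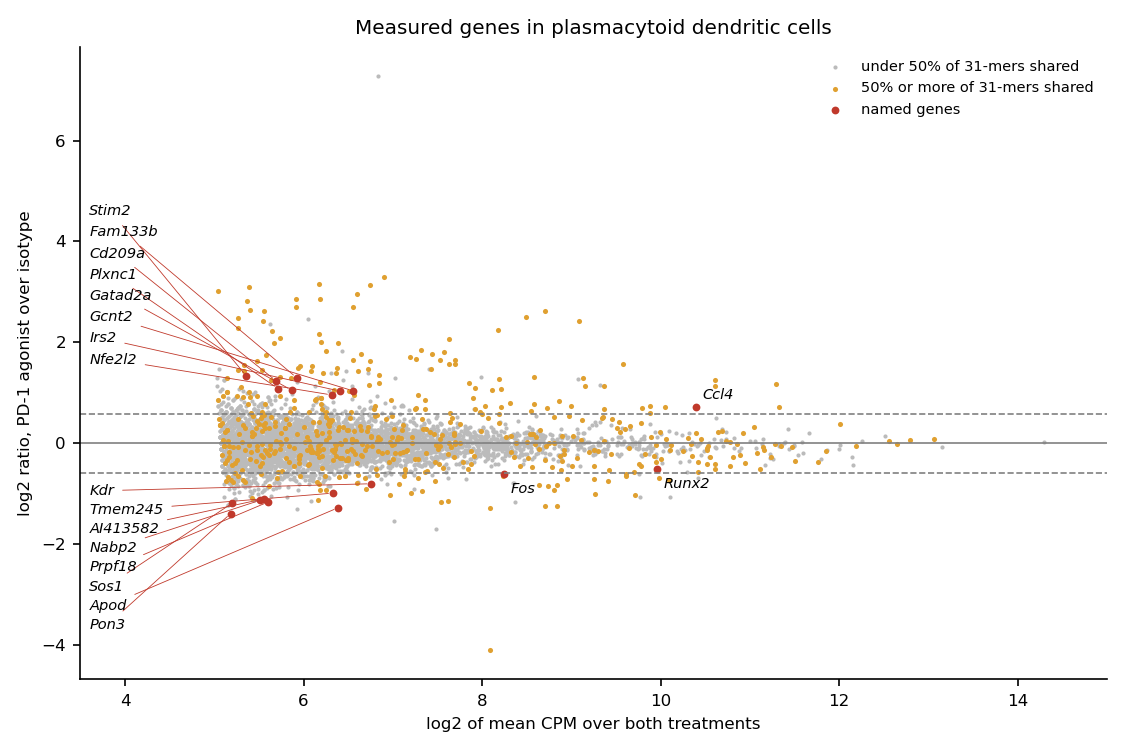
Log2 ratio of agonist over isotype (y axis) against the log2 of mean CPM (x axis) for the 4831 measured genes of the pDCs. Red points are the genes named in the text by the rule, orange points have 50% or more of their 31-base words in another gene, and dashed lines mark 1.5-fold; Ccl4 lies at 0.71, Runx2 at -0.51, and the highest point, Ccl1, has 182 agonist counts that all come from 1 cell.

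The identity list had few genes past 1.5-fold between treatments, beside 6.19% higher and 5.05% lower among all measured genes. Of 48 measured, 2 were higher (Nrp1, a semaphorin and VEGF co-receptor, at 0.60, and Gm21762, with much shared sequence, at 0.72, which was 1.62 in all other cells) and 0 lower, with a median log2 ratio of -0.01. Ly6c2 was the lowest at -0.31 (-0.38 to -0.23), and its ratio in all other kept cells was -0.30. Of 29 lineage factors, 1 was higher (Nfil3, at 0.86) and 0 were past 1.5-fold lower, with a median of 0.01, and Runx2 was the lowest. Nfil3 and Nrp1 fell short of 1.5-fold with the exclusion genes not applied, at 0.43 and 0.44. Tcf4 had a ratio of -0.22 (-0.31 to -0.14), Spib -0.30 (-0.55 to -0.06) and Bcl11a -0.22 (-0.40 to -0.05). These intervals and that of Runx2 lay below 0, whereas Irf8 was at -0.05 (-0.15 to 0.04). Without the cells Scrublet marked, Tcf4, Spib and Bcl11a were at -0.16, -0.23 and -0.09. Other factors went the other way, and of the 29 factors 15 lay above 0 and 14 below. The intervals of Nfil3 (0.15 to 1.61), Stat2 (0.39, 0.03 to 0.75) and Xbp1 (0.36, 0.16 to 0.55) lay above 0.

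Of 30 sensing genes, 0 were higher and 1 was lower (Rnaset2b, an RNase, at -1.03, and -0.81 in all other cells). Of 27 type I interferon-stimulated genes, 2 were higher (Ifi204, at 1.25, and Slfn2, at 0.59) and 0 lower, beside 6.19% and 5.05% of all measured genes. Of these 27 genes 19 lay above 0, as did 2278 of all 4831 measured genes. Their median was 0.17, and 0.040 to 0.22 when each table was left out. Slfn2 was at 0.14 without the cells Scrublet marked and at -0.13 with the exclusion genes not applied. Isg15, a ubiquitin-like product of the interferon response, was at 107 and 106 CPM. Of 17 interferon and cytokine genes 6 were measured, of which Ccl4 was higher and 0 were lower. Ifnb1 had 0 counts in the pDCs of both pools (a floor of 3 counts is 4.38 and 3.75 CPM), and the interferon alpha genes were not measured as columns of the tables used here. Of 25 inhibitory receptor and adaptor genes, 1 was higher (Lilrb4a, with 20 and 56 counts, at 1.26, and at 0.45 without the cells Scrublet marked) and 0 lower.

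Over all measured genes, 6.19% were at least 1.5-fold higher and 5.05% lower. Of 11 MHC class II presentation genes, 1 was higher (Cd83, with 23 and 41 counts, at 0.61, and at -0.21 without the cells Scrublet marked) and 0 lower, with a median of 0.17. H2-Aa had a log2 ratio of 0.38, H2-Ab1 of 0.43, H2-Eb1 of 0.33 and Cd74 of 0.29. Without the cells Scrublet marked these became 0.02, 0.03, -0.18 and 0.12, and with the exclusion genes not applied -0.15, -0.01, -0.30 and -0.02. The transitional dendritic cell list, of genes shared with cDC2, had 3 of 11 measured members higher (S100a4, a calcium-binding protein, at 3.14; Lyz2, lysozyme, at 1.32; and Cd209a) and 0 lower, with a median of 0.29. S100a4 had 15 counts in 5 isotype and 154 in 12 agonist cells, and 4 of those 12 were marked by Scrublet. Without marked cells the list's median was -0.30, S100a4 was at 1.14 and Lyz2 at -0.89. With the exclusion genes not applied, S100a4 was at 0.72 and Lyz2 at 0.17.

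The counts of the lists below stand beside 6.19% higher and 5.05% lower among all 4831 measured genes. Among homing and adhesion genes, Itgb7, an integrin chain of gut homing, had a ratio of 0.67 (0.57 without the cells Scrublet marked), and 0 of 19 were past 1.5-fold lower. Of 31 immediate early and stress genes, 0 were higher and 4 lower (Hspa8, Egr1, Fosb and Fos), with a median of -0.10, and the Hspa8 ratio of -0.71 was -0.76 in all other cells. With the exclusion genes not applied, the ratio of Fos was -0.36 and that of Egr1 -0.054. Of 44 secretory genes, 1 was higher (Sec61g, at 1.39, and 1.64 in all other cells) and 0 lower. Of 13 survival genes, 0 were higher and 2 lower (Casp8, at -0.81, and Bax, at -0.67, both of cell death), and Casp8 was at -0.43 with the exclusion genes not applied. With the record of the lowest total kept for each shared barcode, Bax was at -0.34. Of 21 MHC class I genes, 2 were higher (H2-Q6 and Psme2, which both share sequence with other genes) and 0 lower, and H2-Q6 was at 0.38 with the exclusion genes not applied. None of 21 cytokine receptor, 16 mTOR and PI3K signalling, 8 glycolysis and 7 glucocorticoid responsive genes was past 1.5-fold, nor was any of the 4 of 28 proliferation genes that were measured. Of 35 oxidative phosphorylation genes, 1 (Sdhd) was lower, at -0.70 and at -0.36 with the exclusion genes not applied, and 0 were higher. Checkpoint ligands had 6 of 24 genes measured, with Pvr lower at -0.79 (-1.66 to 0.06; -0.18 with the record of the lowest total), and Cd274 stayed below the count minimum with a ratio of -0.13 (-1.24 to 0.99). Slc15a2, a peptide transporter of the cell membrane, had 5 and 15 counts and a ratio of 1.36 (-0.17 to 3.17), which these counts do not separate from no change.

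**Figure D5:**
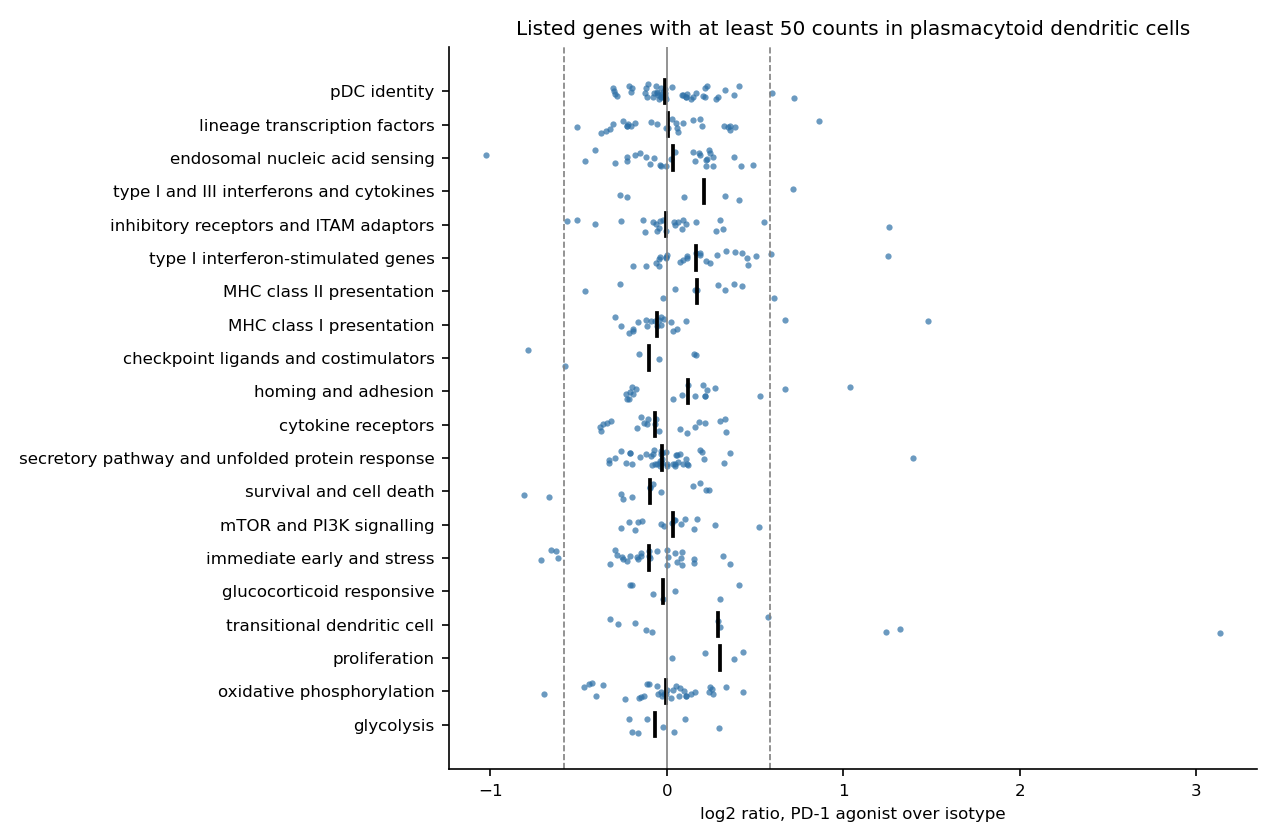
Log2 ratio of agonist over isotype (x axis) for the measured members of each gene list in pDCs (1 point per gene, black bars at the medians, dashed lines at 1.5-fold). The highest point is S100a4 at 3.14 in the transitional dendritic cell list, and list medians lie between -0.10 and 0.30.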

How the data were processed

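Live CD45+ lung cells were profiled on the 10x Genomics platform with TotalSeq-A hashing, and 6 per-cell tables were deposited, 3 per treatment. The authors' expected counts per gene (1.79% of values not whole) and count columns were made with Partek and mm10, per the submitters' processing notes, with no counting settings stated. A deposited percent column gives each cell's mitochondrial share. Cells with 500 expressed genes were kept once per treatment, from the record with the highest total. Counts were summed over pDCs (686210 and 798783), rounded, and scaled to CPM with TMM factors (edgeR 4.0.16); Poisson, Clopper-Pearson and conditional intervals are exact. Doublets were called with Scrublet (scanpy 1.11.5; expected rate 0.1, threshold 0.25) and marked, not removed. Shared words of 31 bases were counted on GENCODE transcripts of GRCm38. Per list, the 2 highest and 2 lowest measured genes could be named, and 10 genes per direction by interval; others singled out were chosen after their values were seen. A gene that the rule picked is not reported here. Scripts were tested on simulated data. The members and lists were chosen with earlier results of these data known. Alternatives changed doublets, gene and marker limits, record, scaling, count minimum, depth and each table.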

Additional observations from a re-analysis of the deposited data

How the results depend on the processing

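No paired analysis was possible because the 3 tables of a treatment share cells, so a fit with the sample number as a block was not run, and each treatment has no replicate. Of 39 shares and share ratios under other settings, 38 stayed within the counting interval found under the stated rule. The agonist share moved to 1.749% with the exclusion genes not applied, an alternative chosen after seeing the data. The interval of the log2 share ratio included 0 under the stated rule (-0.13 to 0.55). It lay above 0 with the exclusion genes not applied (0.11 to 0.72) and after thinning to 1500 counts (0.04 to 0.78). Leaving out each table gave isotype shares of 1.07 to 1.18%, agonist shares of 1.26 to 1.34% and a log2 ratio of 0.14 to 0.31. Genes at least 1.5-fold higher numbered 299 and lower 244. With the exclusion genes not applied 464 were higher, with a count minimum of 20 these numbers were 780 and 717, with a minimum of 1 they were 3932 and 3167, and among named protein-coding genes 143 were higher. Leaving out each table gave 266 to 340 higher and 198 to 235 lower.

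Of 420 list medians, 13 moved by at least 0.1 from a median of at least 0.1 in size to the other side of 0, and further medians near 0 crossed it. Checkpoint ligands moved from -0.10 to 0.074 without Scrublet doublets and 0.039 with at least 2 second markers, and over the tables left out from -0.19 to 0.071. The transitional dendritic cell median became -0.30 without Scrublet doublets, and proliferation -0.053 with Siglech of at least 1. MHC class II became -0.017 and the median log2 ratio of immediate early and stress genes became 0.000283 with the exclusion genes not applied. By the mean over cells, cytokines became -0.067 and homing -0.025. Over the tables left out, cytokines ranged from -0.064 to 0.56 and immediate early genes from -0.16 to 0.016.

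Of 2142 gene ratios, 11 took the other sign of a ratio whose counting interval excluded 0, and further ratios near 0, or with intervals that included 0 such as Ccl5, also changed sign. With the exclusion genes not applied, H2-Ab1 became -0.013, H2-Aa -0.15, H2-Eb1 -0.30 and Cd74 -0.022. Without Scrublet doublets, Lyz2 became -0.89, H2-Eb1 -0.18 and Ifitm3 -0.74. By the mean over cells, H2-Eb1 became -0.0093 and Ifitm3 -0.10, Ifitm3 was -0.031 with at most 4000 genes, and it ranged from -0.084 to 1.03 over the tables left out. Where no cause is visible in the alternative's construction, the cause was not tested. Ratios of genes near 50 counts have wide intervals, and differences between the mice of a pool cannot be told apart from the treatment.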

Other observations

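Some of the largest differences between the pools in pDCs came from single cells, and these genes were picked after their values were seen. Ccl1, a chemokine, had 1 count in isotype and 182 in agonist pDCs, and all of the agonist counts were in 1 cell. Gzma, the granzyme of NK cells and cytotoxic T cells, had 131 counts in isotype and 53 in agonist pDCs, with 88.5% of the former in 1 cell. Its log2 ratio was -1.53, and 0.99 without the top cell of each treatment.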
